A study of Mus musculus with 6 samples.

Results

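The replication-dependent histone genes encode the core histones H2A, H2B, H3 and H4 and the linker histone H1, the proteins that package new DNA during S phase. To describe them during osteoclast formation, the deposited table of RPKM values (reads scaled to transcript length and to mapped reads) was searched, and each entry whose symbol began with Hist1h, Hist2h, Hist3h or Hist4h was kept if the 6 libraries averaged 0.5 RPKM or more. This gave 47 of the 69 entries with such symbols, among 11595 genes tested. The 47 comprised 5 of 6 H1 genes, 9 of 19 H2A genes, 13 of 19 H2B genes, 7 of 12 H3 genes and 13 of 13 H4 genes. The cluster Hist1 on chromosome 13 held 38 of them, Hist2 on chromosome 3 held 7, and Hist3 on chromosome 11 and Hist4 on chromosome 6 held 1 each. The members nearest to the threshold were Hist1h2bb (mean 0.545 RPKM), Hist1h2bf (0.555) and Hist1h3d (0.562), and the entries just below it were Hist1h2ab (0.387), Hist1h3f (0.383) and Hist1h3a (0.329).

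The libraries came from mouse bone marrow-derived macrophages, which are osteoclast precursors, cultured for 3 days under 3 conditions with 2 libraries each. All cultures received M-CSF, a macrophage growth and survival factor, at 30 ng/mL. The condition -R had M-CSF alone, +R also had RANKL, the cytokine that drives osteoclast formation, at 100 ng/mL, and R+LE had RANKL at the same dose with 10 μg/mL of a leaf extract (LE) of Abeliophyllum distichum. The labels give C57BL/6 mice of 6 to 8 weeks, whereas the study's methods name ICR mice. Whether the libraries of a condition came from separate animals or cultures is not given in the sources used here, so the p-values measure only the spread between these libraries, which may be technical.

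A replication-dependent histone mRNA differs from other mRNAs at its 3′ end. Stem-loop binding protein binds a short hairpin after the coding sequence, the pre-mRNA is cleaved a few bases further on, and the mature mRNA usually carries no poly(A) tail. Most of these genes lie in clusters, are transcribed in S phase with the help of the coactivator NPAT, and lose their mRNA quickly when DNA synthesis ends, while some members also give longer polyadenylated transcripts in cells that differentiate. Whether poly(A) RNA was selected for these libraries is not given in the sources used here, and the level of an mRNA without a tail depends on that step.

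The hairpin was searched in the GENCODE transcripts of the members (mouse genome GRCm38, the sequence of mm10) as a stem of 6 bases that begins with GG, a loop of 4 bases with T at its positions 1 and 3, and the exact reverse complement of the stem. Among 37 members with at least 16 annotated bases after the coding sequence, 33 held it, against 58 of 20932 other protein-coding genes (0.277%). A single transcript was searched for each member, so a hairpin in another transcript of the same gene would be missed. Other genes counted when any of their protein-coding transcripts held the hairpin, so these shares were not obtained alike. The hairpin began 24 to 61 bases after the coding sequence, with a median of 34. The sequences below belong to members that the comparisons turn on, read 5′ to 3′ on the strand of the gene, with the 16 bases of stem and loop in capitals.
Hist1h1c: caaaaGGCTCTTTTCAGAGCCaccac
Hist1h1d: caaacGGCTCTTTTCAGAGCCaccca
Hist1h2ae: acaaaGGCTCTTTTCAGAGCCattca
Hist1h2bj: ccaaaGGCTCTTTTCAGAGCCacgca
Hist1h2bk: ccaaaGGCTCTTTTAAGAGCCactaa
Hist1h3g: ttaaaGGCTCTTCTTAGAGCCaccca
Hist1h4h: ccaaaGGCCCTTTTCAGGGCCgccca
They lie at chr13:23739507-23739532 (Hist1h1c, plus strand), chr13:23555782-23555807 (Hist1h1d, plus), chr13:23570663-23570688 (Hist1h2ae, minus), chr13:22043633-22043658 (Hist1h2bj, plus), chr13:22036295-22036320 (Hist1h2bk, plus), chr13:23535884-23535909 (Hist1h3g, plus) and chr13:23531453-23531478 (Hist1h4h, plus), all after the coding sequence of an unspliced transcript. Over the 33 members 8 forms of the hairpin occurred. The form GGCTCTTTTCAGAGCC stood in 15 members of the H1, H2A, H2B and H3 classes, and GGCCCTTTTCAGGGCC in 7 members, all of them H4 genes.

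For 31 members the counted interval could be set against the hairpin, and in all 31 it ended 4 to 7 bases past the hairpin. Reads from a longer transcript of such a gene were therefore counted only up to that point. The other members could not be set against a hairpin in this way, and Hist1h2bc and Hist2h2be were among those. The GENCODE transcripts of Hist1h2bc and Hist2h2be ran 745 and 2195 bases past the coding sequence, and neither held the searched hairpin. The counted lengths of these genes were 724 and 2664 bases. GENCODE gives Hist1h2bc as 2 exons. Hist1h1c held the hairpin 27 bases after its coding sequence, and its GENCODE transcript went on for 840 bases past the hairpin, of which only the first 4 were counted. Longer annotated stretches past the hairpin occurred in other members, such as 4884 bases in Hist1h1d, 2445 in Hist4h4 and 1861 in Hist1h2be.

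**Figure D1:**
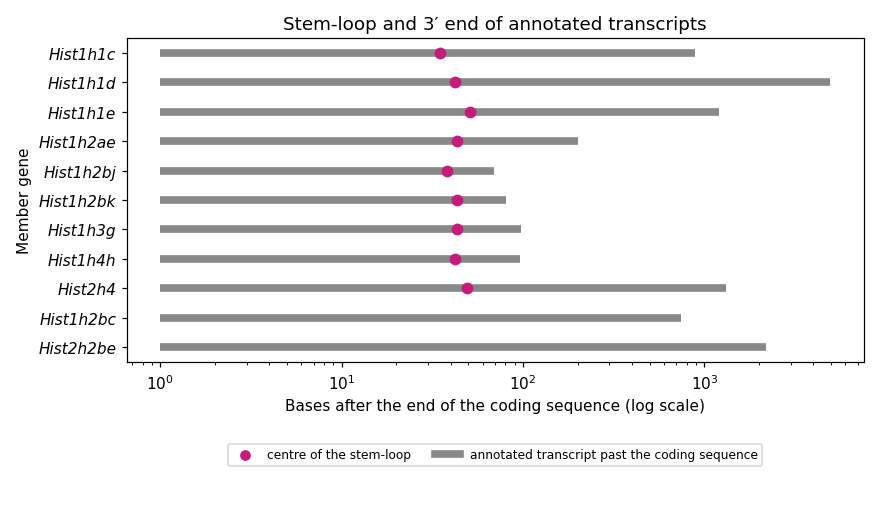
Annotated transcript past the coding sequence for 11 histone genes, in bases on a log scale, with the centre of the stem-loop as a point. The hairpin of the 9 genes that hold it begins 27 to 43 bases after the coding sequence. The annotated end varies from 69 bases (Hist1h2bj) to 4934 bases (Hist1h1d). Hist1h2bc and Hist2h2be show no hairpin in the transcript searched.

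The histone mRNAs were rare in these libraries. Member means ran from 0.545 to 8.66 RPKM with a median of 1.26, against a median of 8.12 RPKM for all genes tested. Recovered from the RPKM values, 1196 to 1785 reads per library fell on the 47 members, out of 29390205 to 34846380 mapped reads, and a member had 2 to 257 reads in a library with a median of 19. The standard error of a log2 fold change accordingly had a median of 0.25 over the members and 0.16 over all genes tested. Sequence shared between paralogs adds to this: in 17 members 50% or more of the possible 100-base reads inside the counted interval also occur in another histone gene, and in 8 none do. In 13 members the counted interval overlaps exons of other annotated genes, by 138 bases in Hist1h2ae and Hist1h2ai and 299 in Hist1h4b. The effect of this overlap was not tested. The entries Hist2h2aa1 and Hist2h2aa2 share 556 bases of their counted intervals and Hist1h4m and Hist1h4n share 366, so the 47 entries stand for 45 separate intervals.

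Macrophage markers were detected in every library, but their level was not constant. The 8 summed to 6732 and 7319 RPKM without RANKL, 3455 and 2692 with RANKL alone, and 4206 and 3764 once the extract was added. Lyz2 made up most of each sum. With RANKL alone Fcgr1 fell from 68.3 and 69.2 RPKM to 1.51 and 1.77. Itgam was the only macrophage marker that rose, from 69.6 and 71.4 to 101 and 79.7. The 9 osteoclast markers summed to 43.2 and 44.8 in -R, 2184 and 1923 with RANKL, and 389 and 336 with RANKL and the extract. Markers of B cells, T cells, erythroid cells, mast cells, megakaryocytes and dendritic cells summed to less than 2 RPKM per list in every library. The 8 neutrophil markers summed to 17.5 and 15.6 RPKM in -R and 0.592 to 2.53 in the other 4 libraries, and 5 stromal markers to 7.48 to 16.2 RPKM. Their part in the histone values was not tested. In bulk RNA such as this, fewer cells in S phase and less histone mRNA per cell cannot be told apart.

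By class, the summed levels of H1, H2A, H2B and H4 were higher in both +R libraries than in both -R libraries. The 5 H1 genes, which encode linker histones, summed to 15.2 and 15.1 RPKM in -R, to 19.0 and 22.5 in +R and to 15.8 and 18.2 in R+LE. The 13 H2B genes summed to 21.5 and 15.2 in -R, to 30.4 and 26.9 in +R and to 19.0 and 29.8 in R+LE. The 13 H4 genes summed to 21.1 and 16.2 in -R, to 22.7 and 31.5 in +R and to 24.6 and 39.7 in R+LE. Here the gap between the R+LE libraries was larger than any difference between group means of the H4 genes.

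The H2A genes summed to 11.8 and 10.8 RPKM in -R, to 14.5 and 12.9 in +R and to 7.53 and 13.7 in R+LE. The H3 genes, the lowest class, summed to 6.32 and 3.08 in -R, to 5.44 and 7.60 in +R and to 5.52 and 8.11 in R+LE, and these overlapped in all 3 comparisons. The ratio of the +R mean to the -R mean was 1.37 for H1, 1.21 for H2A, 1.56 for H2B, 1.39 for H3 and 1.45 for H4. The ratio of R+LE to +R was 0.82, 0.777, 0.852, 1.045 and 1.19 in the same order. With 2 libraries against 2, an exact permutation test cannot go below a two-sided p of 0.333, so no test was made of these sums.

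**Figure D2:**
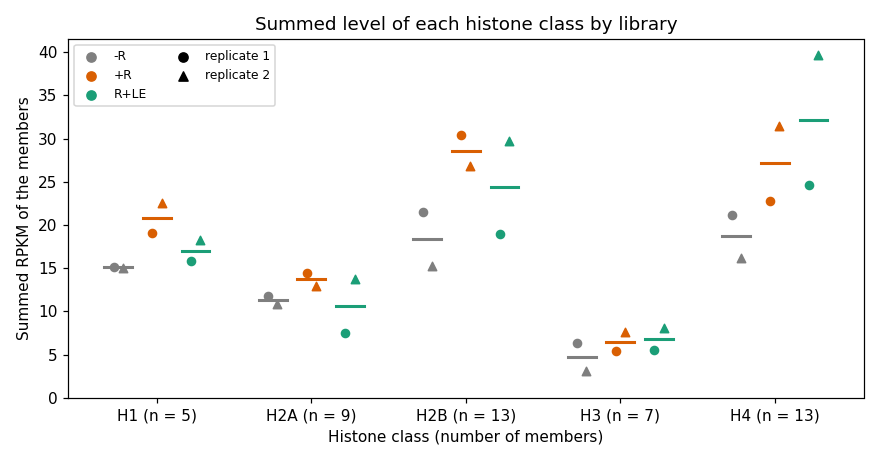
Summed RPKM of the members of each histone class (x axis, with the number of members) in each of the 6 libraries, with a line at the mean of each condition. In H1, H2A, H2B and H4 both +R libraries lie above both -R libraries, and the 2 R+LE libraries stand far apart in H2A, H2B and H4.

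A single member held much of the H1 class. Hist1h1c, the most abundant member, gave 49.1% of the mean H1 sum, and Hist1h2bc gave 27.3% of the H2B sum. In H3 and H4 the levels were spread more evenly, with 23.9% in Hist1h3e and 15.3% in Hist1h4i. These 4 lie in the large cluster on chromosome 13, whereas the top H2A gene, Hist2h2ac with 28.5% of its class, belongs to the Hist2 cluster.

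To ask how RANKL moved the individual genes, +R was compared with -R by limma on log2(RPKM + 0.5), with Benjamini-Hochberg adjustment over all genes tested. A gene passed with an adjusted p below 0.05, and was called when it also changed at least 2-fold, the cut-offs of the study. Of the 47 members 14 passed as higher (29.8%, against 23.9% of all genes tested) and 0 as lower (against 21.5%), with 18 at an unadjusted p below 0.05 in either direction. The share that passed as higher was close to that of all genes, and the share that passed as lower was below it. The median log2 fold change was 0.34 over the members and 0.045 over all genes tested. Above 0 lay 38 of the 47 members and 6175 of the 11595 genes tested. The groups did not overlap for 22 members that were higher in +R and 3 that were lower, against 40.3% and 35% of all genes. The 14 comprised 3 of 5 H1, 2 of 9 H2A, 4 of 13 H2B, 1 of 7 H3 and 4 of 13 H4 genes. Across the 17 alternative settings 4 of the 14 passed every time, Hist1h1d, Hist1h2ae, Hist2h2be and Hist1h2bk. With no filter on low values, or with voom on the recovered reads, 7 members passed as higher. The fall count became 2 (Hist1h2af and Hist1h4f) without +R replicate 2.

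Of the 14, 5 were called, against 6.58% of all genes called higher and 8.92% called lower. Hist2h2be, an H2B gene, rose most. It was at 0.536 and 0.582 RPKM in -R, at 2.89 and 1.91 in +R and at 0.832 and 0.814 in R+LE, on 42 to 236 reads per library. Both +R libraries were far above the other 4. Its log2 fold change was 1.43 ± 0.21 (SE; limma adjusted p = 4.53e-05), and none of its 100-base reads occur in another histone gene. The number of called members was 10 with a pseudocount of 0.1 and 1 with a pseudocount of 1. Without +R replicate 1 it was 9, and without -R replicate 2 or +R replicate 2 it was 4.

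Hist1h2bk, also an H2B gene, was at 0.274 and 0.577 RPKM in -R, at 1.97 and 1.57 in +R and at 1.27 and 1.45 in R+LE. The -R libraries held only 4 and 10 reads of it, and all 4 RANKL-treated libraries lay above them. It rose by a log2 fold change of 1.31 ± 0.21 (limma adjusted p = 0.000138), although 75.9% of its possible 100-base reads also occur in another histone gene. Hist1h4h, an H4 gene, was at 1.26 and 1.06 RPKM in -R, at 2.87 and 3.17 in +R and at 2.13 and 4.33 in R+LE, and rose by 1.08 ± 0.23 (limma adjusted p = 0.00124). Its R+LE libraries were further apart than its +R and -R means.

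Hist1h2ae, an H2A gene, was at 0.613 and 0.310 RPKM in -R, at 1.70 and 1.23 in +R and at 1.26 and 1.48 in R+LE, and rose by 1.04 ± 0.22 (limma adjusted p = 0.00124). Hist1h1d, a linker histone gene, was at 1.45 and 1.002 RPKM in -R, at 2.57 and 3.50 in +R and at 3.61 and 4.04 in R+LE. It rose by 1.03 ± 0.18 (limma adjusted p = 0.000316) and did not overlap between -R and the other conditions. Both of its R+LE libraries lay above both +R libraries, a difference of 0.30 ± 0.18 that did not pass (limma adjusted p = 0.377).

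The other 9 that passed had log2 fold changes from 0.53 to 0.95. Hist1h4k was at 1.76 and 2.12 RPKM in -R, at 2.81 and 6.18 in +R and at 3.28 and 4.37 in R+LE, so that the +R replicates differed more than the group means. Hist2h2bb was at 3.82 and 2.34 in -R, at 4.79 and 5.18 in +R and at 2.84 and 5.76 in R+LE, and its counted interval lies within exons of other annotated genes. Hist1h1e, the second linker histone by level, was at 3.01 and 1.88 in -R, at 3.93 and 3.43 in +R and at 2.77 and 4.26 in R+LE, with an adjusted p of 0.0499 by limma. Hist1h1e and Hist1h1b (0.67 ± 0.25) were among those that no longer passed when the samples were centred on their medians. Single libraries also decided whether several of these passed. Hist1h4k had 0.84 without -R replicate 1 and 0.44 without +R replicate 2, Hist2h2bb 0.34 without -R replicate 2, Hist1h1e 0.25 without -R replicate 2 and 0.44 without +R replicate 1, and Hist1h1b 0.20 without +R replicate 2 and 0.70 and 0.64 without either -R library, and none of these passed.

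Members that did not pass included the most abundant ones. Hist1h1c was at 8.39 and 10.2 RPKM in -R and 10.3 and 10.9 in +R, a log2 fold change of 0.19 ± 0.14 (limma adjusted p = 0.31). Hist1h2bc was at 7.75 and 5.55 in -R and 9.81 and 6.97 in +R, with 0.31 ± 0.18 (limma adjusted p = 0.17). The H4 genes Hist1h4i (2.21 and 4.09 RPKM in -R, then 4.48 and 4.48 in +R, then 4.43 and 4.11 in R+LE) and Hist2h4 (3.04 and 2.33, 3.42 and 3.85, 3.74 and 6.12) did not pass either. The lowest log2 fold changes were those of Hist1h4a (-0.57 ± 0.35), Hist1h2af (-0.57 ± 0.26) and Hist1h3d (-0.39 ± 0.30), none of which passed. Hist1h2af was at 1.02 and 0.926 RPKM in -R, at 0.280 and 0.770 in +R and at 0.545 and 0.918 in R+LE. Hist1h3d was at 1.16 and 0.401 in -R, at 0.260 and 0.650 in +R and at 0.379 and 0.524 in R+LE, and its sign turned (0.053) without -R replicate 1.

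**Figure D3:**
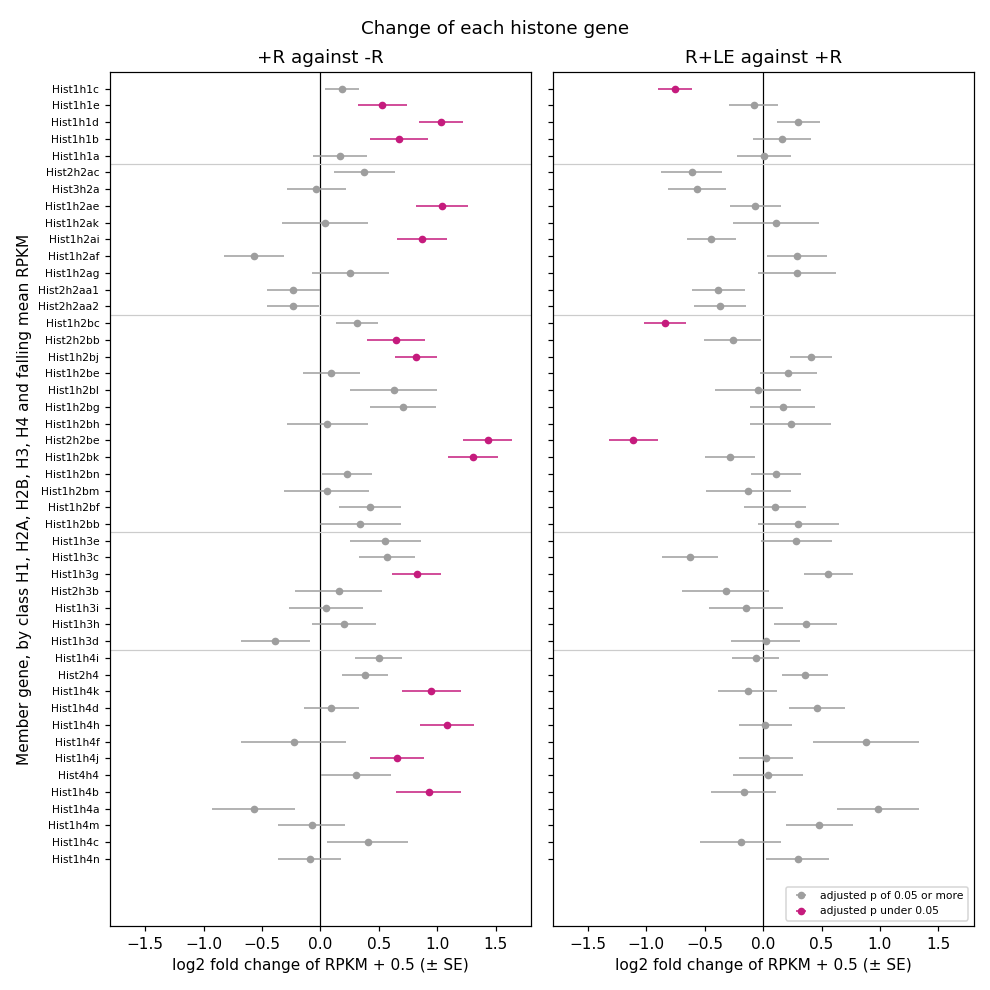
Log2 fold change of RPKM + 0.5 with its standard error for the 47 members, grouped by class, in +R against -R (left) and R+LE against +R (right). Genes with an adjusted p under 0.05 are pink: 14 lie to the right of 0 on the left panel, and 3, Hist1h1c, Hist1h2bc and Hist2h2be, lie to the left of 0 on the right panel.

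To ask what the leaf extract changed in RANKL-treated cells, R+LE was compared with +R. Of the 47 members 0 passed as higher (against 5.19% of all genes tested) and 3 as lower (6.38%, against 6.86%), with 9 at an unadjusted p below 0.05 in either direction. Voom on the recovered reads gave 0 and 3 as well. The member median was 0.021, with -0.047 over all genes. The groups did not overlap for 5 members that were higher and 9 that were lower, against 19.5% and 29.5% of all genes. The share of members that passed as lower was close to that of all genes, and their shares that passed as higher or did not overlap were below it. The 3 were Hist2h2be, Hist1h2bc and Hist1h1c, the last being the most abundant member. Hist2h2be and Hist1h2bc are 2 of the 4 members with 16 or more bases after the coding sequence and no hairpin in the searched transcript. The others are Hist1h1a and Hist2h3b, and this feature was set beside the values after they were seen. Other transcripts of these genes were not searched.

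Hist2h2be fell with the extract, with a log2 fold change of -1.11 ± 0.21 (limma adjusted p = 0.0022), and was the 1 member called, against 1.78% of all genes called lower and 1.46% called higher. Its values were 2.89 and 1.91 RPKM in +R and 0.832 and 0.814 in R+LE. In R+LE against -R its log2 fold change was 0.32 ± 0.21 (limma adjusted p = 0.256). Hist1h2bc, the most abundant H2B gene, went from 9.81 and 6.97 RPKM in +R to 4.46 and 4.35 in R+LE, a log2 fold change of -0.84 ± 0.18 (limma adjusted p = 0.00548). Hist1h1c went from 10.3 and 10.9 RPKM in +R to 6.36 and 5.82 in R+LE, a log2 fold change of -0.75 ± 0.14 (limma adjusted p = 0.00241). For all 3 genes both R+LE libraries were below both +R libraries and differed little from each other. Hist1h1c and Hist1h2bc were also below both -R libraries in R+LE, with log2 fold changes of -0.57 ± 0.14 and -0.53 ± 0.18 (limma adjusted p = 0.00627 and 0.0337). That of Hist1h1c did not pass without -R replicate 2 (-0.43), and that of Hist1h2bc did not pass without -R replicate 1 (-0.30), without either R+LE library (-0.54 and -0.51), with the samples centred on their medians (-0.47), with quantile normalization (-0.48), with depth counted without Rn45s (-0.41), with voom (-0.56), without the variance trend or with no filter (both -0.53). Hist1h1c passed in R+LE against +R in all 17 alternatives. Hist2h2be and Hist1h2bc passed in all but the fit with no filter on low values, where their limma adjusted p were 0.0543 and 0.127.

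**Figure D4:**
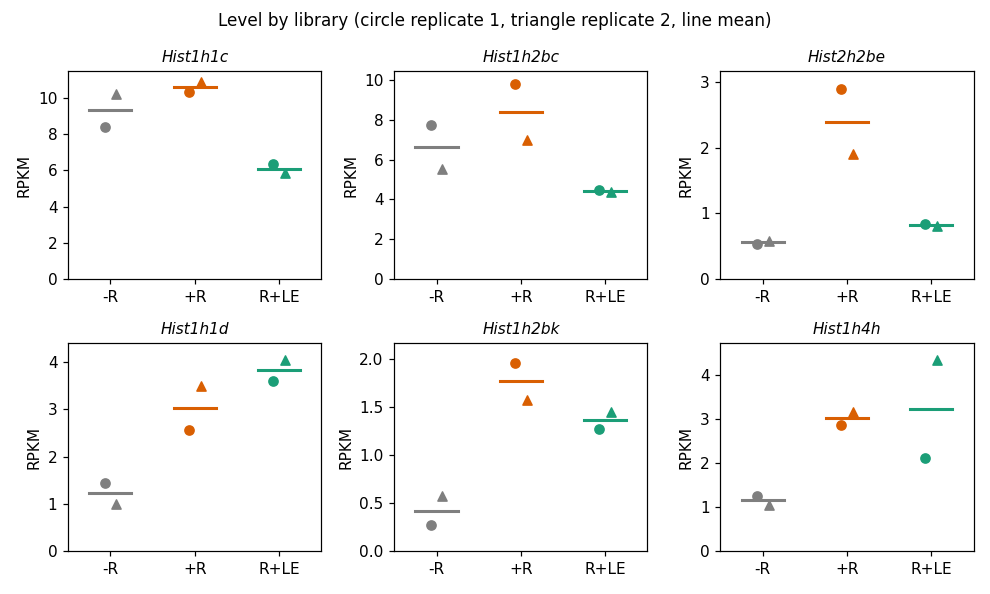
RPKM of 6 histone genes in each library, with a line at the mean of each condition. The upper row holds the 3 genes that fell with the extract, and the lower row 3 genes that were called higher in +R and had no passing change with the extract.

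The 14 members that were higher in +R had log2 fold changes from -1.11 to 0.56 in R+LE against +R, with 6 above 0, and both comparisons use the +R libraries. The 44 members that did not pass lay between -0.62 and 0.98 with adjusted p of at least 0.091, and with these standard errors a smaller change would have gone unseen.

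The largest rises with the extract were in H4 genes and did not pass. Hist1h4a was at 1.43 and 0.571 RPKM in -R, at 0.432 and 0.504 in +R and at 0.701 and 2.54 in R+LE, a log2 fold change of 0.98 ± 0.35 (limma adjusted p = 0.091). Hist1h4f was at 2.58 and 0.806 in -R, at 0.549 and 2.29 in +R and at 1.51 and 4.43 in R+LE, with 0.88 ± 0.45 (limma adjusted p = 0.264). In both genes R+LE replicate 2 was far above replicate 1. The H3 gene Hist1h3g was at 0.278 and 0.293 in -R, at 0.733 and 1.07 in +R and at 1.62 and 1.48 in R+LE, with 0.56 ± 0.21 (limma adjusted p = 0.112). Of the more abundant H2A and H3 genes, Hist2h2ac was at 3.44 and 2.84 in -R, at 4.06 and 4.34 in +R and at 1.57 and 4.10 in R+LE, and Hist1h3c at 0.999 and 0.842, 1.57 and 1.64, and 0.531 and 1.31.

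The R+LE replicates differed across the whole group. In R+LE 36 of the 47 members (76.6%) were higher in replicate 2 than in replicate 1, against 30.9% of all genes tested. The counterpart was 27 members in +R and 15 in -R. The median log2 ratio of replicate 2 to replicate 1 over the members was 0.48 in R+LE, 0.10 in +R and -0.24 in -R, and -0.13, -0.08 and 0.05 over all genes tested. Hist1h1c, Hist1h2bc and Hist2h2be were all among the 11 members that were lower in R+LE replicate 2.

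Values of other RNAs, most of which carry no poly(A) tail, also differed between these replicates. Of 14 such RNAs tested, 11 were higher in R+LE replicate 2 than in replicate 1, 11 in the +R pair and 6 in the -R pair. Rpph1, the RNA of ribonuclease P, was at 16.7 and 24.3 RPKM in -R, at 8.75 and 23.9 in +R and at 11.05 and 23.6 in R+LE. Rmrp, the RNA of the related ribonuclease MRP, was at 80.1 and 46.9 in -R, at 30.3 and 45.4 in +R and at 27.9 and 68.0 in R+LE. The nuclear RNA Malat1 was at 684 and 831 in -R, at 384 and 532 in +R and at 320 and 555 in R+LE, and Neat1, whose short isoform is polyadenylated, at 46.5 and 55.8, 45.5 and 61.1, and 38.2 and 71.4. The ribosomal precursor Rn45s held 4.97% to 13.5% of the reads on genes. The part of the RNA preparation in the histone values was not tested. Leaving out R+LE replicate 2 gave 6 members lower than in +R, the added ones being Hist1h2bm, Hist1h3c and Hist2h2ac, and a member median of -0.15. Leaving out R+LE replicate 1 gave 5 members higher (Hist1h2ak, Hist1h4a, Hist1h4d, Hist1h4f and Hist2h4) with 3 lower, and a median of 0.23. Without +R replicate 2 there were 3 higher (Hist1h2bb, Hist1h4a and Hist1h4f), 4 lower, and 2 called higher with 3 called lower, and without +R replicate 1 there were 1 higher (Hist1h4a), 4 lower and 0 called. The direction of the group in this comparison thus turned on the library left out.

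R+LE was also set against -R, a comparison that shares libraries with both others. Here 13 members passed as higher (27.7%, against 15.3% of all genes tested) and 4 as lower (8.51%, against 19%), and the member median was 0.41 on the log2 scale, with -0.01 over all genes. The groups did not overlap for 20 members that were higher and 6 that were lower, against 31.2% and 34.3% of all genes. When the samples were centred on their medians, or depth was counted without Rn45s, the split became 11 higher and 1 lower. The 5 called members, against 3.92% of all genes called higher, were Hist1h3g (1.38 ± 0.21), Hist1h1d (1.33 ± 0.18), Hist1h2bj (1.23 ± 0.18), Hist1h4h (1.10 ± 0.23) and Hist1h2bk (1.03 ± 0.21), with limma adjusted p from 4.46e-05 to 0.00158. The called members numbered 10 with a pseudocount of 0.1, 1 with a pseudocount of 1 and 9 with voom, and those that passed as higher 5 with no filter and 8 with quantile normalization. Hist1h2bj, an H2B gene, was at 0.958 and 0.741 RPKM in -R, at 2.06 and 1.68 in +R and at 2.53 and 2.77 in R+LE. The 3 conditions of Hist1h2bj and of Hist1h3g did not overlap, with -R lowest and R+LE highest. Neither gene passed in R+LE against +R, where Hist1h2bj had 0.41 ± 0.18 (limma adjusted p = 0.176). The -R libraries held only 12 and 11 reads of Hist1h2bj and 4 and 5 of Hist1h3g. Hist1h3e also passed in R+LE against -R. It was at 1.53 and 0.368 in -R, at 1.67 and 1.25 in +R and at 1.56 and 2.25 in R+LE. Only -R replicate 2 was low. Its log2 fold change of 0.84 became 0.23 without that library and 0.63 without R+LE replicate 2, and passed in neither case.

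Beside Hist1h1c and Hist1h2bc, the members that passed as lower in this comparison were Hist2h2aa1 and Hist2h2aa2, 2 entries for nearly the same H2A interval. Hist2h2aa1 was at 0.677 and 1.04 RPKM in -R, at 0.707 and 0.589 in +R and at 0.401 and 0.356 in R+LE, with a log2 fold change of -0.62 ± 0.23 (limma adjusted p = 0.0477). Hist2h2aa2 was at 0.689 and 0.919, 0.659 and 0.549, and 0.374 and 0.332, with -0.61 ± 0.22 (limma adjusted p = 0.0471). These rest on 6 to 20 reads per library, and neither entry passed when any 1 of the -R or R+LE libraries was left out, with log2 fold changes from -0.81 to -0.42. The third lowest, Hist3h2a, was at 3.71 and 2.96 in -R, at 4.64 and 2.19 in +R and at 1.63 and 2.47 in R+LE (-0.60 ± 0.25, limma adjusted p = 0.078), in an interval that also lies in exons of Trim17 and another gene. The counts in this comparison moved with single libraries: 6 higher and 1 lower without -R replicate 2, 12 and 1 without -R replicate 1, 20 and 1 without R+LE replicate 1, and 7 and 4 without R+LE replicate 2. The called members then numbered 5, 9, 14 and 3.

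Many H2A and H2B genes are arranged head to head around a shared promoter region. Among the members there were 5 such pairs, with 179 to 280 bases between the transcript starts. In RefSeq promoter windows (GRCm38.p6), which matched 44 of the 47 members but had no entry for Hist1h2bc, Hist2h2be or Hist2h4, 3 motifs were searched on both strands in the 250 bases before the start and 50 after it. The octamer ATTTGCAT, bound by POU factors such as OCT-1, stood in 6 of 11 H2B and 3 of 9 H2A windows, in 0 of the H1, H3 and H4 windows, and in 1.74% of 32851 windows of all genes. CCAAT, the site of factor NF-Y, stood in every H1, H2A, H2B and H3 window but in 3 of 12 H4 windows, against 37.4% of all windows, and TATAAA in 24 of 44, against 13.6%. Windows of paired genes can overlap, so a shared site can count in both, as the octamer of Hist1h2ae and Hist1h2bg does. The windows of Hist1h4n and Hist2h2aa2 lie away from the intervals counted for these entries.

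The stretch between Hist1h2ae and Hist1h2bg, shown because its H2A gene was called in +R against -R and its H2B gene passed in R+LE against -R, lies at chr13:23571221-23571399 and is given on the plus strand, with CCAAT, ATTTGCAT and TATAAA on either strand in capitals.
Hist1h2ae-Hist1h2bg: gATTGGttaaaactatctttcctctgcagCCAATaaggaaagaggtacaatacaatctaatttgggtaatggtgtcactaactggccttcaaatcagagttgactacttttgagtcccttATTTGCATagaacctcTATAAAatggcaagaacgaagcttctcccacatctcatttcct
The H2A gene of this pair rose by 1.04 ± 0.22 in +R against -R, and the H2B gene had 0.71 ± 0.28 (limma adjusted p = 0.051) and passed in R+LE against -R (0.87 ± 0.28, limma adjusted p = 0.0247). The H2B gene no longer passed in R+LE against -R without -R replicate 2 (0.48) or without either R+LE library (0.94 and 0.81). The same held with quantile normalization and with no filter. Log2 fold changes in the other pairs in +R against -R were 0.87 for Hist1h2ai and 0.63 for Hist1h2bl, 0.25 for Hist1h2ag and 0.81 for Hist1h2bj, 0.040 for Hist1h2ak and 0.23 for Hist1h2bn, and 0.37 for Hist2h2ac and 1.43 for Hist2h2be. In the last pair both estimates were below 0 with the extract, at -0.61 ± 0.26 (limma adjusted p = 0.168) for Hist2h2ac and -1.11 for Hist2h2be. The R+LE libraries of Hist2h2ac were far apart, at 1.57 and 4.10 RPKM. Hist1h2ai and Hist1h2bl were also both below 0 with the extract (-0.44 and -0.044). Both genes were above 0 in Hist1h2ag and Hist1h2bj (0.29 and 0.41) and in Hist1h2ak and Hist1h2bn (0.11 and 0.11). Hist1h2ae had -0.067 and Hist1h2bg 0.17. The difference within a pair was not tested.

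Of 20 tested genes for histone pre-mRNA processing and histone gene transcription, 4 passed as higher and 2 as lower in +R against -R (against 23.9% and 21.5% of all genes), and 0 in R+LE against +R, with medians of 0.074 and 0.023 (0.045 and -0.047 over all genes). Slbp, the stem-loop binding protein, was at 26.7 and 27.9 RPKM in -R, at 27.6 and 20.2 in +R and at 29.7 and 19.8 in R+LE. Npat had a log2 fold change of 0.076 ± 0.15 and Casp8ap2, another component of the histone locus body, 0.23 ± 0.17 in +R against -R, and neither passed. Of the most abundant genes of this list, Sympk, a scaffold of the cleavage complex, was lower (-0.51), Srrt higher (0.37), and Snrpb and Snrpd3, core proteins of small nuclear ribonucleoproteins, had -0.052 and 0.38 without passing. Cpsf3, which encodes the endonuclease of the cleavage complex, rose by 0.86 ± 0.15 (limma adjusted p = 0.000196).

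The histone variants, most of which are also made outside S phase and give polyadenylated mRNAs (H2afx gives a stem-loop form as well), averaged from 1.15 RPKM (H2afy2) to 317 RPKM (H2afz). H2afz was at 188 and 190 RPKM in -R, at 441 and 381 in +R and at 406 and 294 in R+LE, above the sum of all 47 members in every library (60.4 to 109.5). Of the 11 variants tested, 7 passed as higher and 1 as lower in +R against -R (against 23.9% and 21.5% of all genes). Their median was 0.69, and 0 passed in R+LE against +R. H2afz had 1.12, H3f3a 0.51, H3f3b -0.64 and H2afy -0.11, the last without passing. Of 21 histone chaperones, 8 passed as higher and 1 as lower with RANKL (against 23.9% and 21.5% of all genes), and 0 passed with the extract. The higher ones included Npm1 (1.33), Rbbp7 (0.68), Set (0.64) and Nap1l1 (0.52).

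Genes of the cell cycle were set beside the members, and their part in the histone values was not tested. All 20 genes of G2 and mitosis passed as higher in +R against -R (median 1.23 on the log2 scale), and 0 passed in R+LE against +R (median 0.034). Mki67, a proliferation marker, was at 22.5 and 34.9 RPKM in -R, at 74.1 and 77.8 in +R and at 79.0 and 65.6 in R+LE, and Ube2c, Top2a and Birc5 had 1.60, 1.03 and 1.29. Of 30 S-phase and replication genes 8 passed as higher and 3 as lower in +R against -R, with a median of 0.19. Over all genes tested these shares were 23.9% and 21.5%. Pcna, the sliding clamp of DNA polymerase, fell from 411 and 407 RPKM to 176 and 148 (-1.34), while the helicase subunits Mcm6, Mcm5 and Mcm7 had 0.19, 0.18 and 0.78, of which Mcm7 passed. In R+LE against +R 1 of the 30 passed, Ccne1 (0.54). Set beside these, the members had a median of 0.34 in +R against -R, between the S-phase list and the list of G2 and mitosis. In R+LE against +R the members ran from -1.11 to 0.98, where the genes of G2 and mitosis lay between -0.15 and 0.17. The members had a median standard error of 0.25, and the genes of G2 and mitosis had 0.14 (Aurkb) to 0.22 (Ccna2). Hist1h4a at 0.98 (± 0.35) did not pass, while Hist2h2be at -1.11 did. The 2 ranges thus do not compare sizes of effect.

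**Figure D5:**
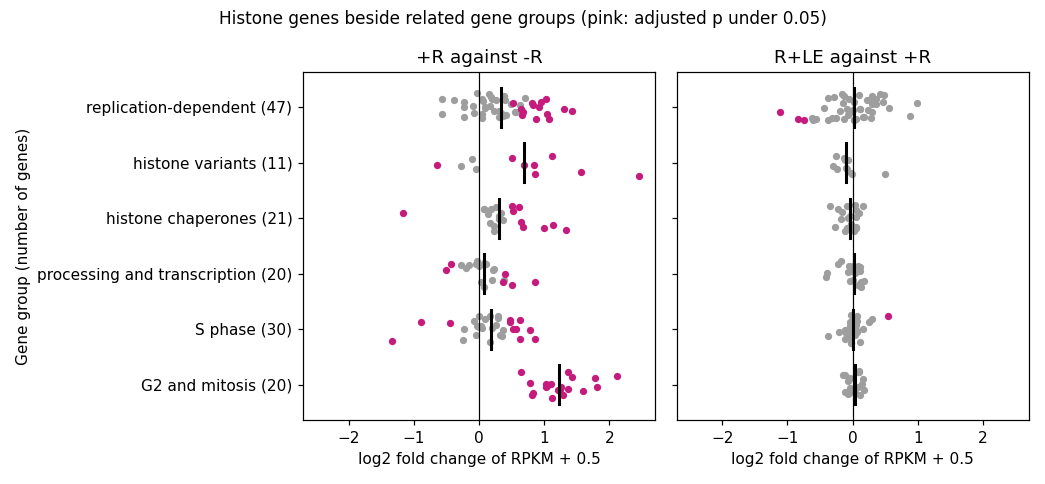
Log2 fold change of each gene of 6 groups (1 point a gene, a bar at the median, pink for an adjusted p under 0.05; vertical scatter within a group carries no meaning) in +R against -R and R+LE against +R. All 20 genes of G2 and mitosis lie above 0 on the left, and on the right the replication-dependent genes hold the 3 pink points below 0.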

How the data were processed

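RNA from 6 libraries (3 conditions, 2 libraries each) was sequenced as 100-base paired reads. The authors deposited 1 table with RPKM values per gene (columns titled FPKM) from HOMER on mm10, counting exon reads of either strand with 1 entry per gene. The study's methods name TopHat as aligner, whereas the submitters' processing notes list HISAT2 and DESeq2, and versions are not given in the sources used here. Symbols were used as deposited. Of the values checked, 99.97% to 99.99% came out as whole reads (tolerance 0.1 read), which gave depth and reads per gene.

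The 11595 genes averaging 0.5 RPKM or more were fitted in limma 3.58.1 (R 4.3.3) on log2(RPKM + 0.5), with all 3 conditions, a variance trend and Benjamini-Hochberg adjustment; fold changes on this scale understate those of low genes. The fit was tested on simulated data with the same spread setting for all genes and no separate result for the members, so it does not show its accuracy for them. Members and gene lists were chosen with earlier results of these data known. Named were the 3 most abundant members of each class, the 3 largest rises and falls of each comparison, every called member and the 4 most abundant genes of each list. Slbp, Npat, Casp8ap2 and Mki67 were named as well. Cpsf3, Rpph1, Ccne1 and some further members lie outside these rules and were named with their values known. Alternatives covered pseudocount, filter, scaling, the groups fitted, a replicate block, voom on recovered reads and leaving out each library. No column belonged to other samples.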

Additional observations from a re-analysis of the deposited data

How the results depend on the processing

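Counts and medians of the members were recomputed under 17 settings, of which depth without Rn45s was chosen after seeing the data, as was counting overlapping entries once. In +R against -R the 14 members higher became 7 with no filter and 7 with voom, and the 5 called became 10 with a pseudocount of 0.1 and 1 with a pseudocount of 1. In R+LE against +R the count of higher members became 1 with a minimum mean of 1 RPKM and 1 without the variance trend, the 3 lower became 1 with no filter, and the 1 called became 0 with a pseudocount of 1 and 0 with no filter. In R+LE against -R the 13 higher became 5 with no filter and 8 with quantile normalization. The 4 lower became 2 with a pseudocount of 0.1, 2 with no filter, 1 when centred on the median, 1 without Rn45s and 1 with voom, and the 5 called became 10 with a pseudocount of 0.1, 1 with a pseudocount of 1 and 9 with voom. Depth without Rn45s moved the median of all genes in R+LE against -R from -0.010 to 0.099 and that of the members from 0.41 to 0.49. The cause was not tested. Leaving out 1 library gave 11 to 16 higher, 0 to 2 lower and 4 to 9 called in +R against -R, 0 to 5 higher, 3 to 6 lower, 0 to 2 called higher and 0 to 3 called lower in R+LE against +R, and 6 to 20 higher, 1 to 5 lower and 3 to 14 called in R+LE against -R; the medians ran from 0.25 to 0.54, -0.15 to 0.23 and 0.061 to 0.69. Hist1h3d in +R against -R ran from -0.82 to 0.053, the latter without -R replicate 1. The library left alone in its condition is assumed to vary like the others. The class-sum ratios moved by less than their replicate spread with all entries, with reads scaled to the reads on genes and with overlapping entries counted once. With the replicate number as a block, +R against -R gave 1 lower and R+LE against +R 1 higher, and no other count moved by over 1.5 times. Deviations of same-numbered libraries correlated at -0.046 (-R and +R), 0.25 (+R and R+LE) and 0.11 (-R and R+LE), so the numbers were not taken as pairs. Depth limits these genes: at a median of 19 reads a member in a library the median standard error of a log2 fold change was 0.25.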
